A study of Mus musculus with 4 samples.

Results

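The immediate early response genes considered here were 35 genes given as a list by symbol, and each was matched to the array's probe sets that carry 1 gene symbol in the platform annotation. All 35 were found, with 57 probe sets among the 45037 probe sets that are not array controls. Of these genes, 21 had 1 probe set and 14 had several, and the brightest, with the highest mean over the 4 arrays, stood for the gene. A filter kept the probe sets whose mean lay at or above the median of all probe sets, which left 22519 probe sets, 11079 genes and 32 of the 35 members. The 3 that fell below it were Fosb, Egr4 and Nr4a3. The list was grouped into the AP-1 factors, the Egr factors, the Nr4a receptors, the Dusp phosphatases and 15 other genes.

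Immediate early genes are switched on within minutes of a growth factor, serum or stress signal, without new protein synthesis, because the factors that act on their promoters are already in the cell. Much of the signal runs through the kinase ERK and the serum response factor, encoded by Srf. It also runs through kinases that act on factors bound to the cyclic AMP response element. Their products include transcription factors of the Fos, Jun, Egr and Nr4a families and phosphatases of the Dusp family, which shut the kinases off again. In preadipocytes, AP-1, Egr and Nr4a factors are among the early response to a differentiation stimulus. The cells here were cultured in DMEM with fetal bovine serum, and the labels name no stimulus before RNA was taken.

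The cells were immortalized mouse brown preadipocytes of a mixed C57/BL6-129 strain whose G9a gene carried floxed alleles (G9af/f) in all 4 samples. The control group, labelled Vec and wild type, held 2 arrays, and the group labelled Cre and G9a knock out also held 2. The labels number the arrays 1 and 2 in each group, and they do not say how Cre was delivered or whether each array had its own culture, so p-values measure only the spread between these arrays. The vector cells carried no Cre, so an effect of Cre itself and one of losing G9a cannot be told apart. In bulk RNA, fewer cells of a kind and less RNA per cell cannot be told apart either.

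Ehmt2, which encodes G9a, a methyltransferase of histone H3 lysine 9, read 2682 and 2688 signal units in vector arrays 1 and 2 and 953 and 912 in Cre arrays 1 and 2. The groups did not overlap, and the 2.81-fold difference had a limma adjusted p of 0.227 without and 0.000281 with the replicate number as a block. The labels name no deleted exon, so a probe set outside the deletion would check nothing. Array medians were 67.2 and 50.6 units in the vector arrays and 78.0 and 52.5 in the Cre arrays, lower in both replicate 2 arrays. All 8 fibroblast and preadipocyte markers with a probe set lay above the filter. None of the 4 brown adipocyte markers did (0), and of the adipocyte markers 1 of 4 did. For macrophages and leukocytes 2 of 7 did, and their summed signal was 329 to 397 units in the vector arrays and 421 to 527 in the Cre arrays. The striated muscle markers, 3 of 5 above the filter, summed to 249 to 382 units in the vector and 537 to 744 in the Cre arrays, and Acta1 was called higher with the block (2.44-fold, limma adjusted p = 0.00722). The neuron markers, 1 of 4 above it, summed to 427 to 557 units in the vector and 270.1 to 276 in the Cre arrays, and Tubb3 was called lower (2.11-fold, limma adjusted p = 0.0419). The endothelial markers had 0 of 4 above it and summed to 45.4 to 121 and 113 to 273 units. Among the 8 fibroblast markers Col3a1 was called higher with the block (1.42-fold, limma adjusted p = 0.0155), and 6 were positive on average. The 2 negative ones were Pdgfra (log2 Cre minus vector -1.25 and -0.41 in replicates 1 and 2) and Cd34 (-0.67 and -0.21). In these 2 (25.0%, against 13.6% of all genes) both Cre arrays lay below both vector arrays on the normalized log2 scale. For 0 fibroblast markers both lay above on that scale, against 17.5% of all genes. In the deposited signals Pdgfra and Cd34 overlapped, and for Col1a1, Col1a2 and Vim both Cre arrays lay above both vector arrays. The summed mast cell markers gave 121 to 128 units in the vector and 715 to 1143 in the Cre arrays. Tpsab1 gave 57.9 and 66.1 of these units in the vector arrays and 627 and 1102 in the Cre arrays, while Kit, Cpa3 and Mcpt4 lay between 2.5 and 43.5 units in every array. With the block Tpsab1 was called higher (limma adjusted p under 0.05), by 3.16 and 3.57 on the log2 scale in replicates 1 and 2. The part of these cell types in the results below was not tested.

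The plot of signal by array shows the values the results rest on. The scale is the deposited signal of each probe set, which compares arrays and not genes.

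**Figure D1:**
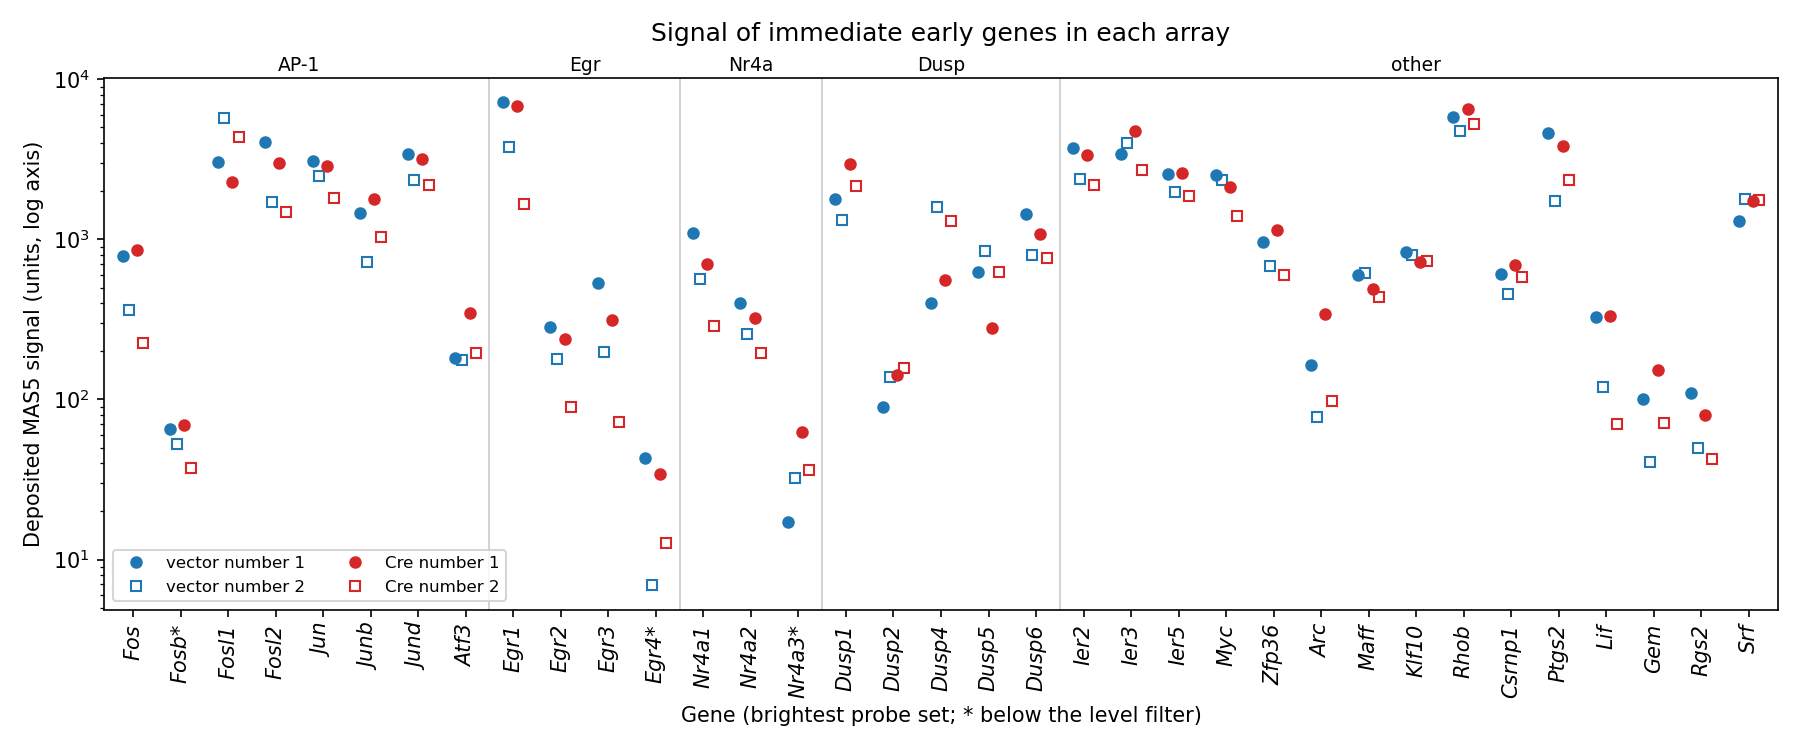
Deposited MAS5 signal of the brightest probe set of each of the 35 genes (vertical log axis, signal units) in the 4 arrays, by family. Circles are replicate 1 and squares replicate 2, blue is vector and red is Cre, and an asterisk marks the 3 genes below the filter. For Fos, Egr1, Egr3 and Lif both squares lie below both circles, and for Fosl1 and Dusp4 both lie above.

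Differences were tested on log2(signal + 16) after quantile normalization, so they understate the change of dim genes. Between genotypes, with no pairing of the arrays, 0 of the 32 tested members passed a limma adjusted p of 0.05, as did 0.0% of all tested genes. At an unadjusted p under 0.05 there was 1 member, Dusp1, against 5.07% of all genes. The smallest p that an exact permutation test (two-sided) allows with these groups is 0.333. The replicate numbers were the larger source of spread. With genotype in the model, 20 of the 32 members (62.5%) differed between replicate 2 and replicate 1 at a limma adjusted p under 0.05, where 16.7% of all tested genes did. Of these, 17 were lower in the replicate 2 arrays, where 8.26% of all genes were lower, and 3 were higher, against 8.46%. The lower members were Fos, Fosl2, Jun, Junb, Jund, Egr1, Egr3, Ier2, Ier5, Nr4a1, Dusp1, Dusp6, Zfp36, Arc, Rhob, Ptgs2 and Lif. The higher ones were Fosl1, Dusp4 and Dusp5. Other genes parted the numbers as well. Thy1, a fibroblast marker, read 437 and 2974 units in the vector arrays and 526 and 2500.1 in the Cre arrays, a 5.68-fold difference, while the fibroblast genes Col3a1 and Pdgfrb were 1.63-fold and 1.47-fold lower in replicate 2, and all 3 passed. The X-linked Xist lay at 9810.0 to 11049 units in the replicate 1 arrays and 41.8 to 58.0 in the replicate 2 arrays. The Y-linked Eif2s3y lay at 141 to 228 and 1127 to 1265 units. The part of these differences in the members' was not tested.

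Over the 32 members the median log2 difference of replicate 2 minus replicate 1 was -0.51, beside 0.0016 over all tested genes. It was -0.42 between the vector arrays and -0.60 between the Cre arrays. The difference between replicate numbers was larger in size than that between genotypes for 26 of the 32 members (81.25%) and for 61.6% of all tested genes. These counts depend on limma's intensity trend: without it 0 of the 32 members passed between the numbers, and without the level filter 10 of 35 did. With the scaling as deposited 23 passed, and there the median over all tested probe sets was itself -0.12. The shares of all genes under these settings are not given here, so these member counts cannot be set against them.

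**Figure D2:**
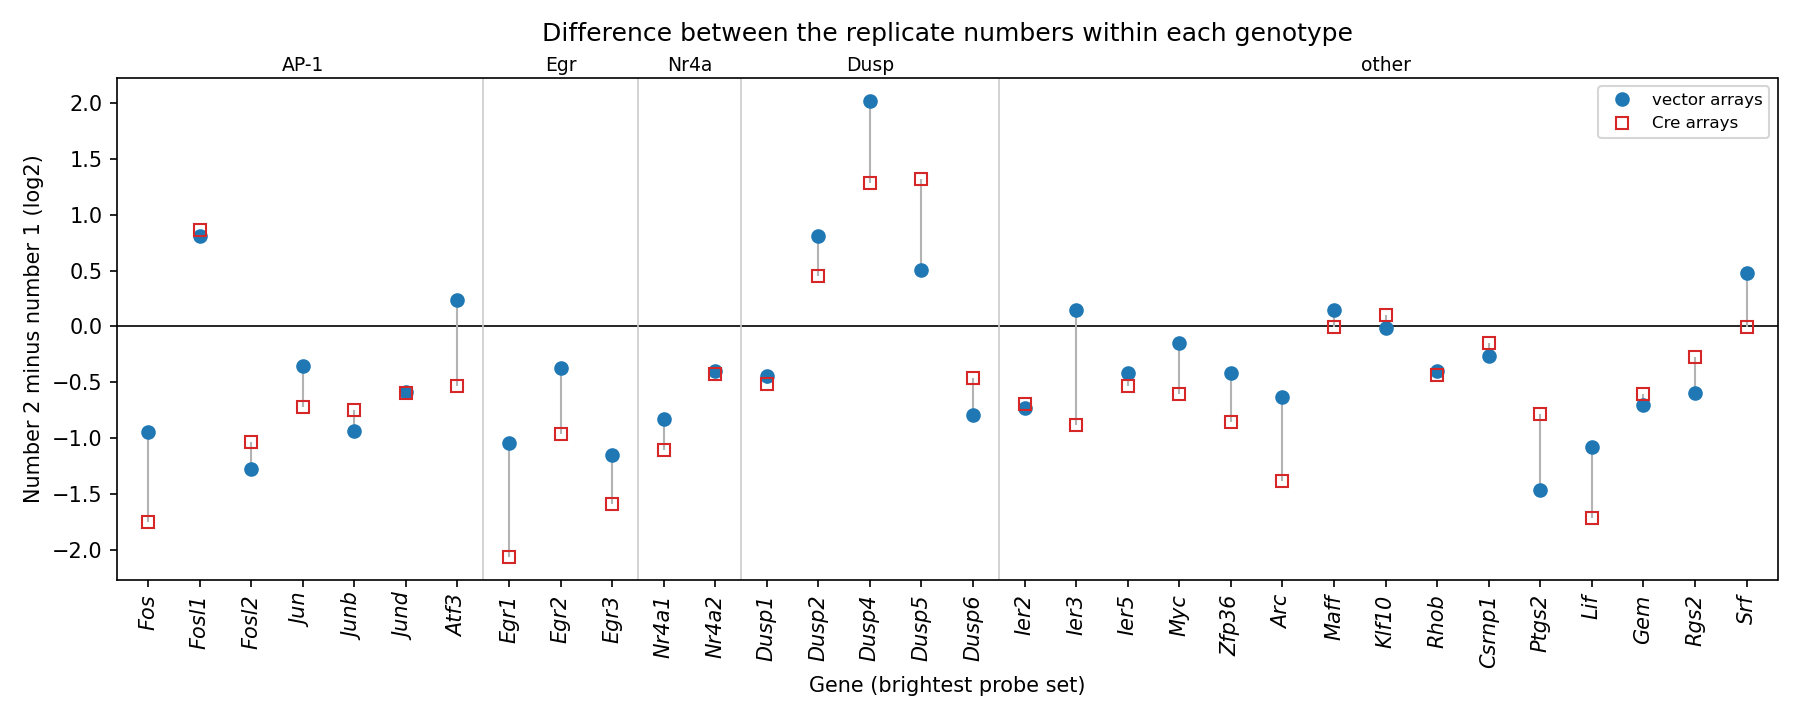
Log2 difference of replicate 2 minus replicate 1 (vertical axis) for each of the 32 tested genes, by family, with blue circles for the vector arrays and red squares for the Cre arrays. Most pairs of points lie below 0, and Fosl1, Dusp2, Dusp4 and Dusp5 lie above it in both genotypes.

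With the replicate number as a block, which compares Cre with vector within each number, 3 of the 32 members (9.38%) passed a limma adjusted p of 0.05, against 4.23% of all tested genes. With the filter on mean linear signals, which was run first, 2 passed, and Nr4a1 was the member lost. Egr3 and Nr4a1 fell, where 0.984% of all genes did, and Dusp1 rose, where 3.25% of all genes did. These same 3 were the members that differed by at least 0.5 in 1 direction within both numbers. For 1 member higher the share over all genes was 4.77%, and for 2 lower it was 1.71%. On the normalized log2 scale the arrays of the genotypes did not overlap for 3 members higher (Atf3, Dusp1 and Csrnp1) and 3 lower (Myc, Maff and Klf10). Over all genes the shares were 17.5% and 13.6%. In the deposited signals Csrnp1 did overlap, with 608.5 units in vector array 1 and 580.9 in Cre array 2. The median difference of Cre minus vector over the members was -0.14, with 20 negative and 12 positive, beside 0.0073 over all genes. Within the numbers the median was -0.086 in replicate 1 and -0.16 in replicate 2. In the same direction within both numbers were 17 lower members (30.2% of all genes) and 8 higher (32.8%).

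**Figure D3:**
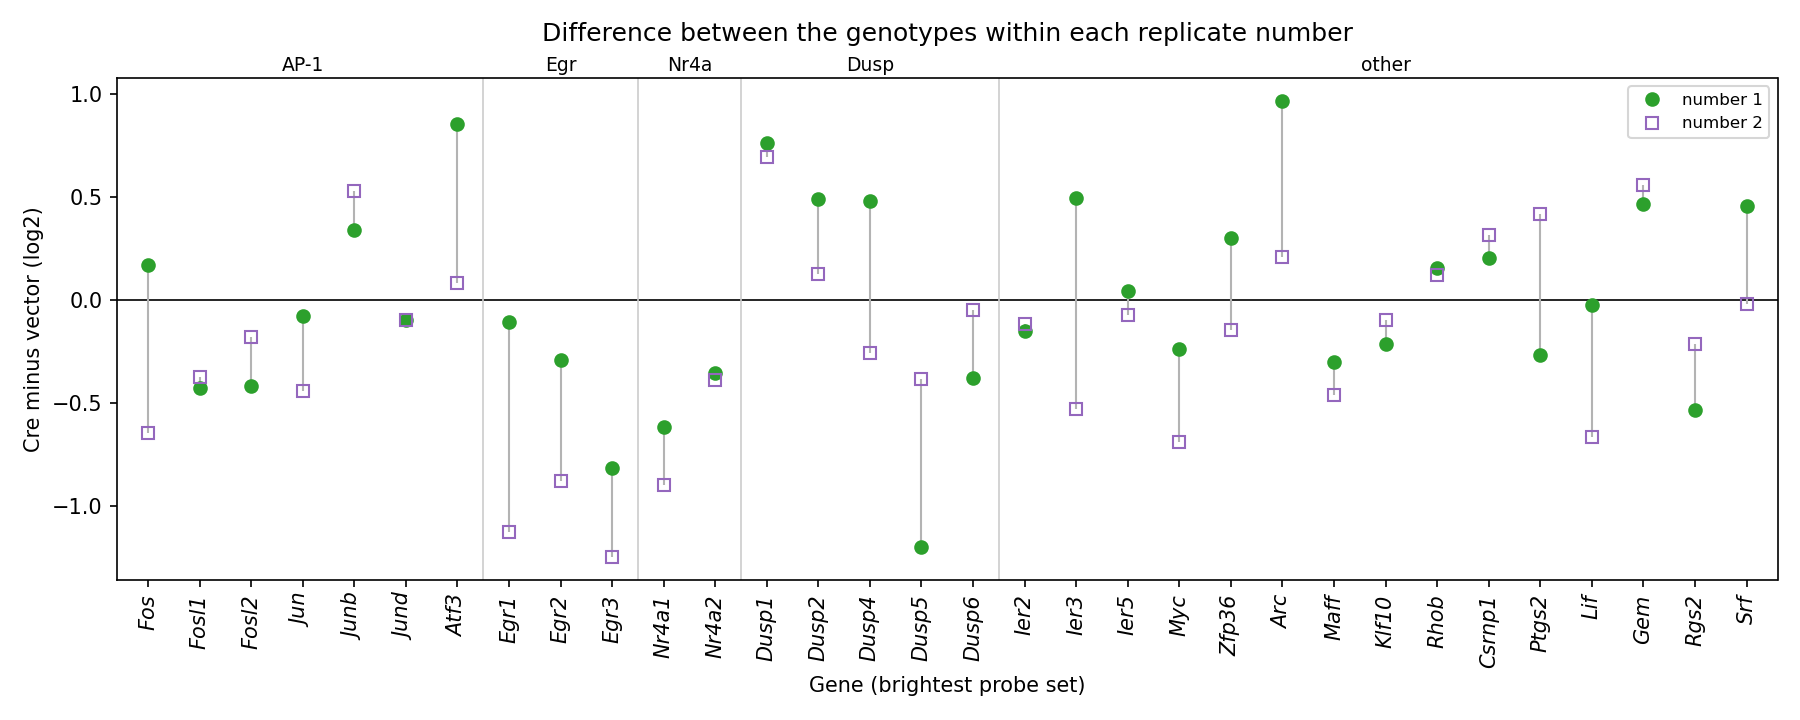
Log2 difference of Cre minus vector (vertical axis) for each of the 32 tested genes, by family, with green circles for replicate 1 and purple squares for replicate 2. All 3 tested Egr genes and both tested Nr4a genes lie below 0 in both numbers, Dusp1 lies above 0 in both, and 7 genes have points on opposite sides of 0.

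The AP-1 proteins bind DNA as dimers, among them those of a Fos and a Jun protein. Fos, the inducible founder of the family, read 782 and 362 units in vector arrays 1 and 2 and 863 and 224 in Cre arrays 1 and 2. Both replicate 2 arrays were the low ones, and the genotypes overlapped. Replicate 2 minus replicate 1 was -1.35 ± 0.22 on the log2 scale (SE; limma adjusted p = 0.00336), a 2.54-fold difference. Between the genotypes Fos differed by 0.17 in replicate 1 and -0.64 in replicate 2.

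Fosl1, which encodes Fra-1, went the other way between the numbers. It read 3051 and 5710.0 units in the vector arrays and 2269 and 4344 in the Cre arrays, so the replicate 2 arrays were high in both genotypes. The difference between the numbers was 0.84 ± 0.11 (limma adjusted p = 0.0016). The Cre arrays differed from the vector arrays by -0.43 and -0.37 within the numbers. The mean of -0.40 did not pass with the block (limma adjusted p = 0.101). A further probe set of Fosl1 gave 0.98 and 1.10 between the numbers in vector and Cre arrays.

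Fosl2, which encodes Fra-2, followed Fos rather than Fosl1 between the numbers. Its signals were 4028 and 1708 units in the vector arrays and 2995 and 1487 in the Cre arrays. Replicate 2 was 2.22-fold lower (-1.15 ± 0.13; limma adjusted p = 0.000667), and Cre minus vector was -0.42 and -0.18. A dimmer probe set of Fosl2 gave less between the numbers (-0.27 and -0.37) and more between the genotypes (-0.65 and -0.75).

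Among the Jun genes, Jun read 3064 and 2474 units in the vector arrays and 2877 and 1799 in the Cre arrays. Junb, whose protein is a weaker activator than Jun, read 1453 and 719 units in the vector arrays and 1780 and 1040 in the Cre arrays. Jund, the most constantly expressed of the Jun genes in many cells, read 3412 and 2362 units in the vector arrays and 3175 and 2184 in the Cre arrays. All were lower in replicate 2, Jun by -0.54 ± 0.14, Junb by -0.84 ± 0.16 and Jund by -0.59 ± 0.12. Between genotypes Junb was 0.34 and 0.53 higher within the numbers (limma adjusted p = 0.194 with the block), Jun differed by -0.077 and -0.44, and Jund by -0.095 and -0.098.

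Atf3, a stress-induced partner of the Jun proteins, read 181 and 177 units in the vector arrays and 346 and 195 in the Cre arrays. Cre array 1 stood above the other arrays, which lay close together. The difference of Cre minus vector was 0.86 in replicate 1 and 0.083 in replicate 2 (limma adjusted p = 0.37 with the block). Fosb, below the filter, lay between 37.3 and 69.4 units in the 4 arrays. Of the 7 tested AP-1 genes, 0 passed between the genotypes with the block, where 4.23% of all tested genes did. Between the numbers 6 passed (85.7%, against 16.7% of all genes), with Atf3 the exception.

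The Egr genes encode zinc finger factors that bind GC-rich sites and are themselves induced through serum response factor. All 3 tested members were lower in Cre than in vector cells within both numbers, with a family median of -0.29 in replicate 1 and -1.12 in replicate 2. Egr1, the most widely induced of them, read 7188 and 3774 units in the vector arrays and 6763 and 1669 in the Cre arrays. The replicate 1 arrays were close to each other, and Cre array 2 was the lowest. Between the genotypes Egr1 differed by -0.10 in replicate 1 and -1.12 in replicate 2. The mean of -0.61 ± 0.19 did not pass with the block (limma adjusted p = 0.126). With 1 array of each genotype in a number, the difference between these 2 values could not be tested. Between the numbers Egr1 was 2.93-fold lower in replicate 2 (-1.55 ± 0.19; limma adjusted p = 0.000856).

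Egr2, known for its part in myelination and in early adipogenesis, read 281 and 178 units in the vector arrays and 239 and 89.9 in the Cre arrays. Egr2 differed by -0.29 and -0.88 between the genotypes and did not pass (limma adjusted p = 0.246 with the block). A further probe set of Egr2 gave -0.81 and -0.24, so its larger difference lay in the other number. Between the numbers that probe set was 2.06-fold lower in replicate 2 (limma adjusted p = 0.0249), while the brightest did not pass (limma adjusted p = 0.0784).

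Egr3 fell with the block. It read 536 and 197 units in the vector arrays and 313 and 72.5 in the Cre arrays. Within each number the Cre array was the lower one, while Cre array 1 still exceeded vector array 2, so the genotypes overlapped. Cre minus vector was -0.81 and -1.24 within the numbers, on average -1.03 ± 0.21 (SE, n = 2 against 2; limma adjusted p = 0.026 with the block and 0.999 without it), a 2.04-fold difference. Replicate 2 was 2.58-fold lower than replicate 1 (-1.37 ± 0.21; limma adjusted p = 0.00303). A dimmer probe set of Egr3 differed by -0.67 and 0.14 between the genotypes, and between the numbers by -0.046 in the vector arrays and 0.77 in the Cre arrays. Egr4, below the filter, lay between 6.9 and 43.2 units. Nab2, which encodes a co-repressor that binds Egr proteins and is an Egr target, is no member of the list and was read beside it. It read 4064 and 3725 units in the vector arrays and 2949 and 2450.4 in the Cre arrays, without overlap. Nab2 fell with the block by 0.51 ± 0.12 on the log2 scale (limma adjusted p = 0.0446). This call too lies at the threshold, and it was lost with a pseudocount of 64 (limma adjusted p = 0.0579) and with a filter at the 75th percentile (0.0823).

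The Nr4a genes encode orphan nuclear receptors whose activity is set mostly by their own level. Nr4a1, also called Nur77, read 1091 and 569 units in the vector arrays and 704 and 289 in the Cre arrays. In both numbers the Cre array was the lower one, and Cre array 1 exceeded vector array 2. Within the numbers Nr4a1 differed by -0.62 and -0.90, on average -0.76 ± 0.18 (limma adjusted p = 0.0469 with the block), a 1.69-fold difference. The call lies at the threshold and depends on the filter. With the filter on mean linear signals, which was run first and replaced after its results had been seen, the limma adjusted p with the block was 0.0503 and Nr4a1 was not called. With a pseudocount of 64 it was 0.0612, and with a filter at the 75th percentile 0.0587. Replicate 2 was lower by -0.96 ± 0.18 (limma adjusted p = 0.00644).

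Nr4a2, also called Nurr1, read 399.8 and 256 units in the vector arrays and 322 and 195 in the Cre arrays. Its differences between the genotypes, -0.35 and -0.39 within the numbers, did not pass (limma adjusted p = 0.391 with the block). Nr4a2 had 5 further tested probe sets, dimmer ones, of which 1 was positive on average and 4 were negative between the genotypes. Between the numbers 1 of the 5 was 3.11-fold higher in replicate 2 (limma adjusted p = 0.0166), with Cre array 1 at 21.3 units. The others did not pass, nor did the brightest, which was lower in replicate 2 (-0.41). Nr4a3 lay below the filter, at 17.1 and 32.3 units in the vector arrays and 62.2 and 36.3 in the Cre arrays.

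The Dusp genes encode dual-specificity phosphatases that take the activating phosphates off ERK, p38 and JNK kinases. Dusp1, which acts on p38 and JNK as well as ERK in the nucleus, rose with the block. It read 1790.2 and 1321 units in the vector arrays and 2939 and 2149 in the Cre arrays, and both Cre arrays lay above both vector arrays. Cre minus vector was 0.76 and 0.69, on average 0.73 ± 0.14 (limma adjusted p = 0.0159 with the block and 0.999 without it), a 1.66-fold difference. It was also lower in replicate 2, by -0.47 ± 0.14 (limma adjusted p = 0.0406). The direction of Dusp1 between the genotypes was thus opposite to that of Egr3 and Nr4a1, while all 3 genes were lower in replicate 2.

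Dusp4 and Dusp5, both nuclear phosphatases, were high in replicate 2. Dusp4 read 401 and 1596 units in the vector arrays and 553 and 1293 in the Cre arrays, a 3.14-fold difference between the numbers (1.65 ± 0.20; limma adjusted p = 0.00082). Between the genotypes Dusp4 differed by 0.48 and -0.26. Dusp5, which is selective for ERK, read 628 and 847 units in the vector arrays and 281 and 627 in the Cre arrays, where Cre array 1 stood lowest. Cre minus vector was -1.19 and -0.38 for Dusp5. The mean of -0.79 ± 0.21 did not pass (limma adjusted p = 0.0847 with the block), though it did with the scaling as deposited (limma adjusted p = 0.0429). Between the numbers Dusp5 was higher in replicate 2 by 0.91 ± 0.21 (limma adjusted p = 0.0191).

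Dusp6, the cytoplasmic ERK phosphatase and a common readout of ERK activity, read 1439 and 801 units in the vector arrays and 1079 and 764 in the Cre arrays. Its replicate 2 arrays were low, by -0.62 ± 0.17 (limma adjusted p = 0.031). Cre minus vector was -0.38 and -0.048 for Dusp6. Dusp2 read 90.2 and 137 units in the vector arrays and 142 and 158 in the Cre arrays, and passed in neither comparison.

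Of the 15 other members, 0 passed between the genotypes with the block, where 4.23% of all tested genes did. Between the numbers 7 passed (46.7%), all of them lower in replicate 2, where 8.26% of all genes were lower. Lif, which encodes a cytokine of the interleukin 6 family, read 328 and 120 units in the vector arrays and 334 and 70.4 in the Cre arrays, a 2.63-fold difference between the numbers. Ptgs2, the gene of the inducible cyclooxygenase, read 4630.0 and 1739 units in the vector arrays and 3848 and 2344 in the Cre arrays, a 2.18-fold difference. For both genes the 2 replicate 1 arrays lay above the 2 replicate 2 arrays. A dimmer probe set of Ptgs2 differed less between the numbers, by -0.23 in the vector arrays and 0.064 in the Cre arrays.

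Arc, a gene of synaptic plasticity in neurons, read 165 and 77.4 units in the vector arrays and 343 and 97.1 in the Cre arrays, where Cre array 1 stood highest. Ier2, a nuclear early response protein gene, read 3742 and 2379 units in the vector arrays and 3376 and 2172 in the Cre arrays. Ier5 read 2567 and 1973 units in the vector arrays and 2614 and 1855 in the Cre arrays. In these genes too the replicate 2 arrays were the low ones, by 2.01-fold in Arc, 1.63-fold in Ier2 and 1.39-fold in Ier5. A dimmer probe set of Ier5 was higher in replicate 2, by 0.19 in the vector and 0.41 in the Cre arrays. Another differed by -0.10 and -0.31.

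Zfp36, which encodes tristetraprolin, a protein that speeds the decay of early response mRNAs, read 961 and 678 units in the vector arrays and 1149 and 603 in the Cre arrays. Rhob, a small GTPase gene, read 5800 and 4741 units in the vector arrays and 6552 and 5278 in the Cre arrays. Rhob had the smallest of these 7 differences between the numbers, -0.42 ± 0.10, and its limma adjusted p was 0.0191.

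The remaining 8 members of that group were Ier3, Myc, Maff, Klf10, Csrnp1, Gem, Rgs2 and Srf. By their brightest probe sets, signals ran from 40.9 to 4722 units and differences of Cre minus vector from -0.46 (Myc) to 0.51 (Gem). The lowest limma adjusted p among these was 0.149 between the genotypes with the block and 0.118 between the numbers. A further probe set of Rgs2, nearly as bright, gave -1.47 and -0.35 between the genotypes (limma adjusted p = 0.204 with the block). Myc, the growth-promoting transcription factor, read 2516 and 2330.3 units in the vector arrays and 2108 and 1394 in the Cre arrays, and both Cre arrays lay below both vector arrays. Cre minus vector for Myc was -0.23 and -0.69. Srf itself read 1309 and 1796 units in the vector arrays and 1738 and 1767 in the Cre arrays, with vector array 1 the lowest, and passed in neither comparison.

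Probe sets of the same gene did not always give the same sign. Of the 10 members with several tested probe sets, 7 had all of them on 1 side of 0 between the genotypes and 5 between the numbers.

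The 3 lists of related genes were read beside the members, with the caveat that they were drawn up with earlier results of these data known. The list named feedback inhibitors of ERK signalling held 13 Sprouty, Spred, Errfi1 and further Dusp genes, all tested. Dusp phosphatases can also act on p38 and JNK, so not every gene of the list need act on ERK. With the block 3 of the 13 fell and 0 rose (23.1% of the list, against 0.984% of all genes for lower). The median difference of the 13 was -0.27. Of these, 12 of 13 were negative on average, as were 5417 of all 11079 genes. In 6 (46.2%) both Cre arrays lay below both vector arrays, against 13.6% of all genes. This list left out the 5 Dusp members. With the block 1 of those, Dusp1, rose (20.0%, against 3.25% of all genes) and 0 fell. On average 3 of the Dusp members were positive and 2 negative. Errfi1, whose protein inhibits the EGF receptor, read 4791 and 3105 units in the vector arrays and 2461 and 1896 in the Cre arrays, with no overlap. Cre minus vector for Errfi1 was -0.98 and -0.68 (limma adjusted p = 0.00622 with the block). Spry2, a Sprouty inhibitor of receptor tyrosine kinase signalling, read 1912 and 2084 units in the vector arrays and 1213 and 1084 in the Cre arrays, again with no overlap. Cre minus vector for Spry2 was -0.65 and -0.87 (limma adjusted p = 0.0193 with the block). Dusp9, another ERK phosphatase gene, read 282 and 804 units in the vector arrays and 128 and 305 in the Cre arrays, so that both the Cre arrays and the replicate 1 arrays were low. Cre minus vector for Dusp9 was -1.17 and -1.27, a 2.33-fold difference on average (limma adjusted p = 0.00658 with the block). An _x_at probe set stood for Dusp9. That probe set was not tested in the setting that left such probe sets out, nor with the 75th percentile filter. Spred3, which encodes a Sprouty-related inhibitor, differed by -1.05 and -0.34 and did not pass.

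**Figure D4:**
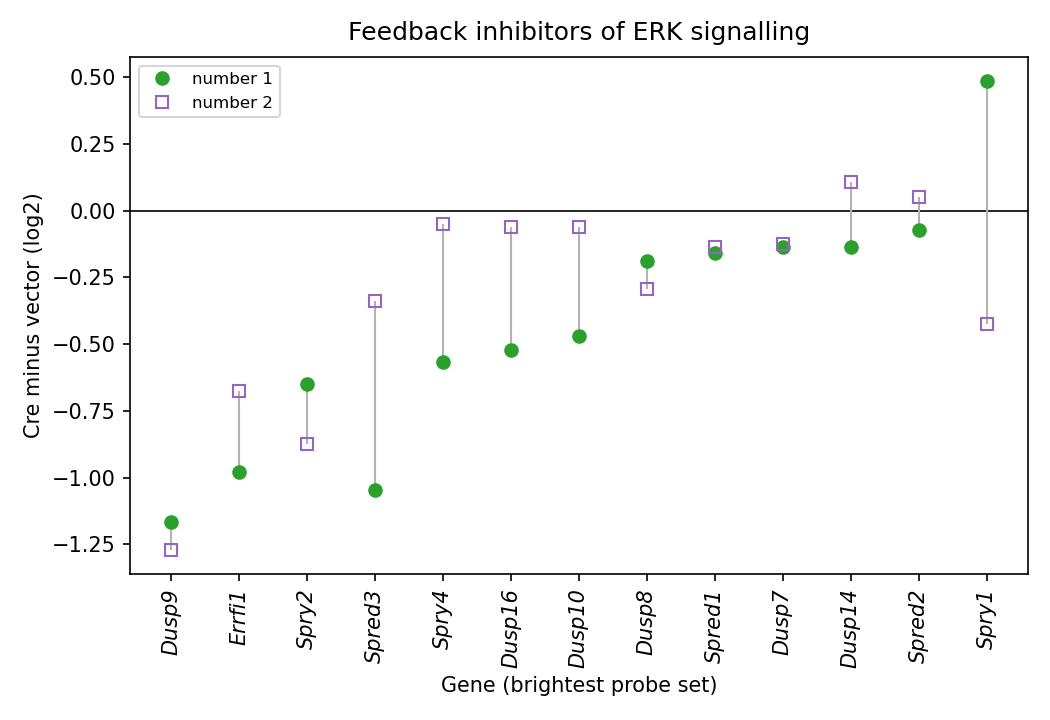
Log2 difference of Cre minus vector (vertical axis) for the 13 genes listed as feedback inhibitors, ordered by their mean. Green circles are replicate 1 and purple squares replicate 2. Dusp9, Errfi1 and Spry2 lie below -0.6 in both numbers, and Spry1, Spred2 and Dusp14 have points on opposite sides of 0.

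A list of 30 genes of the ERK pathway, the factors at serum response promoters and the Egr co-repressors had 23 tested. With the block 1 of these (4.35%) was called, Nab2, against 4.23% of all genes, and the median difference was 0.086. Between the numbers 6 of the 23 were lower in replicate 2 (26.1%, against 8.26% of all genes) and 1 was higher (4.35%, against 8.46%). Of 42 further early response genes 40 were tested; 2 rose and 2 fell with the block (5.0% each, against 3.25% and 0.984% of all genes), with a median of 0.053. Sgk1, a serum-induced kinase gene, read 6289 and 5677 units in the vector arrays and 2513 and 3781 in the Cre arrays, with no overlap (limma adjusted p = 0.00973 with the block). F3, the tissue factor gene, fell by 0.81 ± 0.17 on the log2 scale (limma adjusted p = 0.0231 with the block). Ccn2, a matrix-associated growth factor gene, rose by 0.35 ± 0.078, and Gadd45a, a growth arrest gene, rose by 0.84 ± 0.19 (limma adjusted p = 0.0351 and 0.0391 with the block). The call of Gadd45a was lost with a pseudocount of 64 (limma adjusted p = 0.054). Between the numbers 15 of these 40 genes were lower in replicate 2 (37.5%, against 8.26% of all genes) and 3 were higher (7.5%, against 8.46%).

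Promoter sequences were available for 26 of the 35 members, from RefSeq on GRCm38.p6, and the 250 bases before each gene's start were searched on both strands. The members gave 35 windows, because Egr2, Csrnp1 and Maff have several starts each, and 3 of the 5 Egr2 windows overlap each other. The CArG box, the site of serum response factor, was found before Dusp5, Egr2, Srf and Zfp36, in 20.0% of the member windows and 1.47% of all 32851 windows. By gene that is 4 of 26. Most of the 7 member windows with the box are Egr2's, and the 3 overlapping ones hold the same site. The letters TGACG, the core of the cyclic AMP response element, were found before 15 members, in 60.0% of their windows against 17.8% of all. The full element TGACGTCA, which contains that core on both strands, was found before Dusp1 and Maff, in 5.71% of windows against 1.55%. The Egr site GCGNGGGCG was found before 9 members, Nr4a1 among them, in 25.7% of windows against 4.7%. The AP-1 site TGANTCA was found before Csrnp1 and Lif, in 5.71% against 6.75%. Windows were not matched for base composition, a match is no evidence of binding, and a window without a match says nothing of sites elsewhere.

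The windows of 4 genes are shown for comparison of a gene that fell with the block (Nr4a1, plus strand, chr15:101266596-101266845), a gene that rose (Dusp1, minus strand, chr17:26508473-26508722), and a pair that differed between the replicate numbers in opposite directions (Fos, plus strand, chr12:85473640-85473889, and Dusp5, plus strand, chr19:53528895-53529144). Each runs 5′ to 3′ along its gene's strand and ends at the base before the start. Capitals mark the motifs named above and, before Fos, the TATA box TATAAA, which 12.4% of all windows hold. Before Nr4a1 they are 4 cyclic AMP cores and an Egr site. Before Dusp1 they are the full element and a separate core, before Fos 2 cores and the TATA box, and before Dusp5 2 CArG boxes that adjoin each other and a core.
Nr4a1: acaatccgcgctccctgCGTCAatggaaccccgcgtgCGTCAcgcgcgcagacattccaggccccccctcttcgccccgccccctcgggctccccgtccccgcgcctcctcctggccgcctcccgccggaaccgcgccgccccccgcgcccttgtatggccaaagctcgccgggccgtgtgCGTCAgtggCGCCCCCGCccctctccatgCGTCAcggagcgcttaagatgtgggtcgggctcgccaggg
Dusp1: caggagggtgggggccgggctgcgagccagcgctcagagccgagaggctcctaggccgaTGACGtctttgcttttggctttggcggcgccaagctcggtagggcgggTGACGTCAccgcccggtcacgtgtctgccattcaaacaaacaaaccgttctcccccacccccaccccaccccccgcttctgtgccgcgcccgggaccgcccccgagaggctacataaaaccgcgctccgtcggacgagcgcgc
Fos: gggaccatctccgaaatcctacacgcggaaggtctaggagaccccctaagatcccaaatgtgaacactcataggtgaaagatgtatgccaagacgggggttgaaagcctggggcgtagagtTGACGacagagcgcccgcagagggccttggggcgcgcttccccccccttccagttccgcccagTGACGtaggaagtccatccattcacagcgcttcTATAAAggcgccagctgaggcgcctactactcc
Dusp5: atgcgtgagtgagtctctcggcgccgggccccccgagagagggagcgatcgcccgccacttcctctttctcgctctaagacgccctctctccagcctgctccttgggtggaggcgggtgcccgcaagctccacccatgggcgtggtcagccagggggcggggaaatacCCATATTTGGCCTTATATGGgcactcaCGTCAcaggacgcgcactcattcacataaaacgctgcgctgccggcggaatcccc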

How the data were processed

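Total RNA of 2 vector and 2 Cre samples was hybridized to Affymetrix mouse arrays. The deposited value per probe set and array is a linear signal intensity made with MAS5, per the submitters' processing notes; its version is not given in the sources used here, and detection calls were not used here. In the deposited intensities each array's mean, after trimming 2% from each end, was 500.0. The 64 control probe sets were left out, and 34945 of the other 45037 carried 1 symbol. Intensities were quantile normalized and taken as log2(signal + 16), and probe sets with a mean log2 value at or above the 50th percentile were tested with lmFit and eBayes with an intensity trend (limma 3.58.1, R 4.3.3). Benjamini-Hochberg adjustment ran over the tested probe sets and calls were made at 0.05. An interval or SE is the model's (2 residual and 4.1 prior degrees of freedom without the block, 1 and 9.81 with it), and the number of arrays limits precision. The code was tested on simulated data.

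Members were named by family, with signals for every tested AP-1, Egr, Nr4a and Dusp gene and for other members that passed a test. The members, lists, tests and alternatives were chosen with earlier results of these data known. The numbers were treated as pairs: deviations of same-numbered arrays correlated at 0.603 across probe sets, and Xist read 11049 (vector) and 9810.0 (Cre) units in replicate 1 but 41.8 and 58.0 in replicate 2, a difference between the numbers and not the genotypes; the labels do not state a pairing. The filter was first run on mean linear signals and then moved to mean log2 values, with the results of both seen, to match the earlier processing; the move put Nr4a1 past the threshold, and the first filter is kept as an alternative. The other alternatives were the scaling as deposited, other pseudocounts (1, 64), testing every probe set, a 75th percentile filter, no trend, fewer or averaged probe sets, the replicate block, and omission of single arrays.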

Additional observations from a re-analysis of the deposited data

Results flagged for a closer look

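In 7 tested members the Cre array lay above the vector array in 1 replicate number and below it in the other. The difference of Cre minus vector in replicate 2 from that in replicate 1 was -0.81 for Fos, -1.02 for Ier3, -0.12 for Ier5, -0.74 for Dusp4, -0.44 for Zfp36, 0.68 for Ptgs2 and -0.48 for Srf, on the log2 scale. With 1 array of each genotype in a number these differences were not tested.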

How the results depend on the processing

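Between genotypes without the pairing, 2 probe sets passed. It was 1 with a pseudocount of 1, with the 75th percentile filter or without the _s_at, _x_at and _a_at probe sets, 0 without the filter or without the trend, and 7 to 28 with 1 array left out. With the replicate block it was 708, and 3 in place of 0 members passed. Ehmt2, the cell type markers Acta1, Tubb3, Col3a1 and Tpsab1 and the genes named from the related lists were likewise called only with it. The block changed no other call given here. Under the alternatives without the block 0 members passed. Of the 3 members, Dusp1 was called with the block in 7 of the 9 settings that kept all arrays, Egr3 in 6 and Nr4a1 in 4, and none of them without the filter or without the trend. The genes named from the related lists were not called in those 2 settings either. Nab2 was lost in 2 further settings (0.0579 with a pseudocount of 64, 0.0823 with the 75th percentile filter) and Gadd45a with a pseudocount of 64 (0.054). The members' median of Cre minus vector, -0.14, ran from -0.37 to 0.22 with 1 array left out (0.083 without vector replicate 1, 0.22 without Cre replicate 2), which unbalances the numbers. Between the numbers, 20 members became 10 without the filter, where more probe sets are tested, and 0 without the trend, the cause of which was not tested; the 20 kept their sign in every setting that tested them. Leaving out an array leaves no residual degrees of freedom for that test, so it was not run. The shares of all genes that passed between the numbers under the alternatives are not given here. Dim probe sets near the pseudocount limit the precision.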
